A study of Homo sapiens with 16 samples.

Results

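Melanoma cells that have lost the melanocyte programme carry a group of mesenchymal genes, and the 6 described here were AXL, NRP1, FN1, CDH2, VIM and TPM1. They were chosen by name from that programme, with earlier results of these data known. Each was located among the deposited transcript entries by matching coding lengths of neighbouring entries to annotated genes, and the entry with the most counts over all libraries stood for the gene. All 6 were found, among 9960 genes named in this way of 19967 annotated coding genes.

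The study counted ribosome footprints, the mRNA fragments that ribosomes shield from nuclease, in 4 established human cancer lines exposed for 30 min to rocaglamide A (RocA) at 0.3 or 3 µM or to the solvent DMSO. A375 and Hs 936.T are melanoma lines, and NCI-H520 and NCI-H1650 are lung cancer lines. Each line had 1 library at 0.3 µM, 1 at 3 µM and 2 with DMSO, which makes 16 libraries, and all carried the label WT for genetic background. The title of 2 NCI-H520 libraries, 3 µM and DMSO replicate 2, differs from their cell line label, NCI-H521, and they were grouped by title.

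RocA, a compound from Aglaia plants, clamps the RNA helicases eIF4A and DDX3 onto purine-rich RNA, so that scanning ribosomes are held up before they reach the start codon. The mesenchymal programme runs from the cell surface to the cytoskeleton. AXL is a receptor tyrosine kinase for GAS6, and NRP1 is a co-receptor for semaphorins and VEGF. FN1 encodes the matrix protein fibronectin, CDH2 the adhesion protein N-cadherin, VIM the intermediate filament protein vimentin, and TPM1 a tropomyosin that lies along actin filaments. In melanoma these genes are known for high levels in invasive cells with little MITF, the melanocyte transcription factor.

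Because RocA acts on purine runs, the longest uninterrupted run of A and G in the annotated 5′ untranslated region is shown for 5 of the genes, in capitals within 30 bases of the mRNA strand, written 5′ to 3′. The transcripts are those of GENCODE 29 (GRCh38) with the lowest number among those of the counted length, and which 5′ end the cells use was not measured.
AXL: GGGAAGGAGGcaggggtgctgagaaggcgg
NRP1: aagtgtGGGAAAAGGGAGAGGAAGccggag
CDH2: gtGGGGAGGGGAGGGGAAGGGAAGGGGGtg
VIM: ggtccccgcgccAGAGAcgcagccgcgctc
TPM1: ctgctgcagccccAGGGcccctcgccgccg
The stretches lie at chr19:41219203-41219232 (+ strand, AXL) and chr10:33334602-33334631 (- strand, NRP1). That of CDH2 lies at chr18:28177144-28177173 (- strand). Those of VIM and TPM1 lie at chr10:17229298-17229327 (+ strand) and chr15:63042795-63042824 (+ strand). CDH2 had the longest run of these 5, 26 bases, a length that 1.11% of 9561 named genes reached. NRP1 had 18 bases (reached by 4.09% of genes) and AXL 10 (33.7%). VIM and TPM1 had runs of 5 and 4 bases, below the median of 8 over all named genes. The runs are a description of the annotation, and a match is neither a site of RocA nor a cause of a change.

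Counts over the named genes ranged from 52477 to 607188 per RocA library and from 593526 to 3321182 per DMSO library. Values are CPM, the counts of a gene scaled to a common library size with TMM factors, and the labels do not say that libraries came from separate cultures, so p-values measure the spread between these libraries, which may be technical. The label of each line was compared with marker genes under DMSO. In A375 MITF averaged 17.0 CPM, against 1473 CPM in Hs 936.T, and in the lung lines it averaged 74.3 CPM (NCI-H520) and 41.2 CPM (NCI-H1650), and the melanocyte markers PMEL and DCT stood at 18.0 and 0.818 CPM in A375, against 20964 and 944 CPM in Hs 936.T. A375 is labelled a melanoma line, and all 7 of its melanocyte markers tested were lower than in Hs 936.T. ERBB3, also a listed melanocyte marker, was left out for its short counted entry, a choice made after seeing the data. It went the other way, with 11007 counts in A375 and 5398 in Hs 936.T, 1.77-fold higher in A375. Of the epithelial markers, KRT19 had 0 counts in both melanoma lines and averaged 1106 CPM in NCI-H520 and 4609.9 CPM in NCI-H1650. Not all were absent from the melanoma lines. KRT18 averaged 466 CPM in A375 and 3.21 CPM in Hs 936.T, against 1343 CPM in NCI-H520 and 5356 CPM in NCI-H1650. ESRP1 averaged 0.227 CPM in A375 and 35.5 CPM in Hs 936.T, against 231 and 192 CPM in those lung lines. The squamous markers under DMSO were higher in NCI-H1650 than in NCI-H520. PKP1 had 223 counts in NCI-H1650 and 3 in NCI-H520, KRT15 97 and 6, KRT5 24 and 1, and TP63 5 and 0, while NKX2-1, a marker of lung adenocarcinoma, had 0 and 10. NCI-H520 is known as a squamous line and NCI-H1650 as an adenocarcinoma line, so these markers went against those names, and the lung lines are called by their labels here. The libraries of NCI-H520 stood apart. In them 7 melanocyte markers had a median of 1.0% (0.3 µM) and 1.91% (3 µM) of their Hs 936.T level under DMSO, against 3.73% and 7.47% in the DMSO libraries. Of 7 named markers of fibroblasts, endothelium and blood, the summed level was at most 30.7 CPM in any library.

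Footprints fell with RocA on NRP1 in A375 and rose on CDH2, TPM1 (its long-form entry), AXL and FN1, while VIM did not pass the test (edgeR's quasi-likelihood test with Benjamini-Hochberg adjustment, called at an adjusted p under 0.05). So 5 of the 6 genes were called, 4 higher and 1 lower, where 48.7% of all 6209 genes tested were called, 22.8% higher and 25.9% lower. The median log2 change was 0.55 over the 6 genes and -0.11 over all genes tested. The summed level of 7 melanocyte markers in A375 was 164 CPM at 0.3 µM and 176 CPM at 3 µM RocA, against 50.0 and 35.7 CPM in the 2 DMSO libraries, with a median log2 change of 2.08 and none of the 7 called. PMEL, the most abundant of them with RocA, stood at 113 CPM with RocA and 18.0 CPM with DMSO on average, and the part of those reads in the A375 changes was not tested. These changes are relative to the other mRNAs of the same libraries. The named-gene totals of the A375 RocA libraries were 12.6% (0.3 µM) and 10.6% (3 µM) of the mean DMSO total, and the counts hold no measure of footprints per cell.

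**Figure D1:**
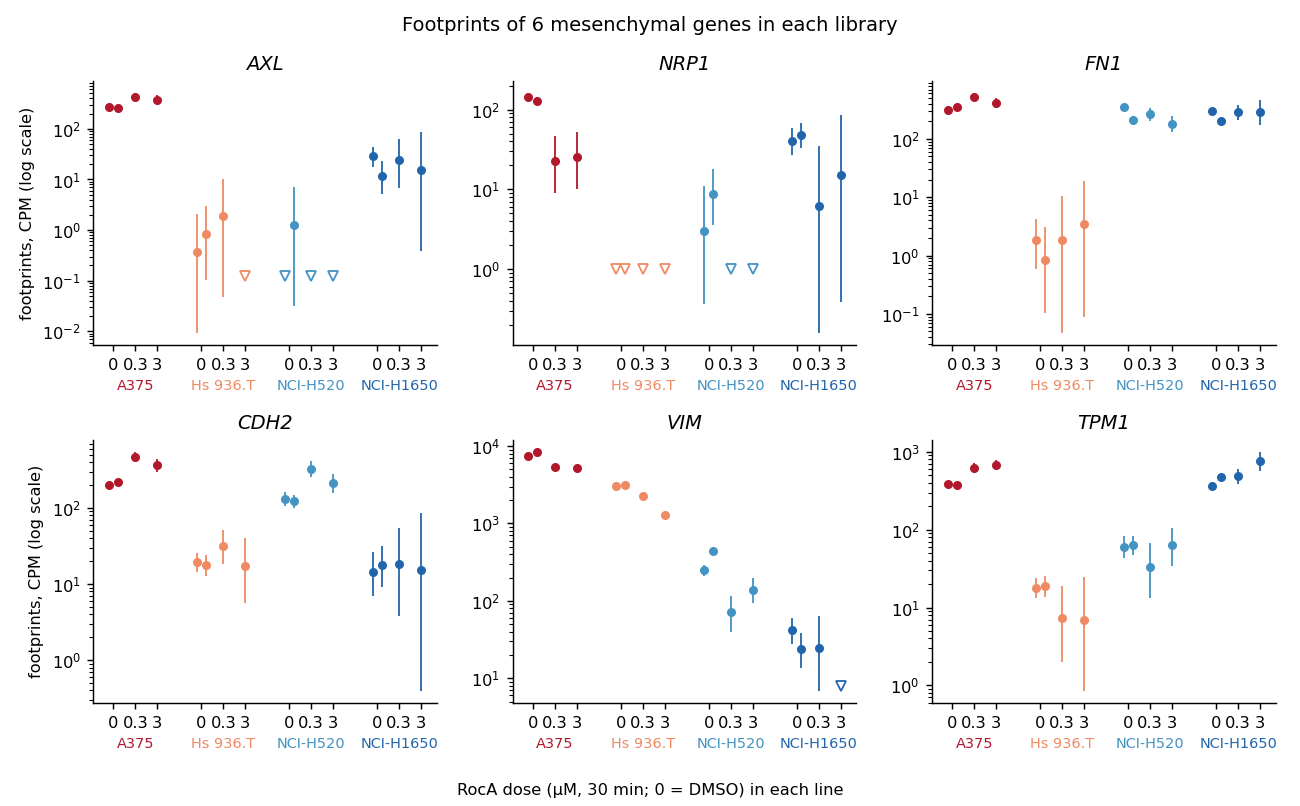
Footprints (CPM, log axis) on each gene in each of the 16 libraries, by line and RocA dose, with DMSO at 0; bars are exact 95% Poisson intervals and open triangles mark libraries with 0 counts. NRP1 in A375 is the member with the widest gap between RocA and DMSO libraries of that line, at 22.5 and 25.1 against 145 and 129 CPM.

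Among the surface receptors, NRP1 had 22.5 CPM at 0.3 µM and 25.1 CPM at 3 µM RocA, against 145 and 129 CPM in the 2 DMSO libraries. Both RocA libraries lay far below both DMSO libraries, on 7 and 7 counts with RocA, against 319 and 473 with DMSO. The log2 change was -2.52 ± 0.32 (SE), with an adjusted p of 1.2e-10 from edgeR's quasi-likelihood test with Benjamini-Hochberg adjustment. AXL went the other way, with 430.4 CPM at 0.3 µM and 377 CPM at 3 µM RocA, against 267 and 259 CPM in the 2 DMSO libraries. Its groups did not overlap, and the log2 change was 0.61 ± 0.14 (adjusted p = 1.7e-04, same test).

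Of the matrix and adhesion genes, CDH2 had 469 CPM at 0.3 µM and 363 CPM at 3 µM RocA, against 198 and 219 CPM in the 2 DMSO libraries. It had the largest rise of the 6 genes, 0.96 ± 0.14 on the log2 scale, with an adjusted p of 8.6e-09 by edgeR's quasi-likelihood test. FN1 had 524 CPM at 0.3 µM and 417 CPM at 3 µM RocA, against 307 and 354 CPM in the 2 DMSO libraries. All RocA values were above the DMSO values, but the 2 DMSO libraries were 0.20 log2 units apart, and the change of 0.49 ± 0.17 passed with an adjusted p of 0.014 from the same edgeR test. The FN1 call was lost with DESeq2 (0.43, adjusted p = 0.2) and without A375 DMSO replicate 1 (0.33, edgeR adjusted p = 0.13).

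The cytoskeletal genes were divided. TPM1 had 617 CPM at 0.3 µM and 682 CPM at 3 µM RocA, against 388 and 379 CPM in the 2 DMSO libraries, a log2 change of 0.75 ± 0.13 with an adjusted p of 4.6e-07 from edgeR's quasi-likelihood test. The entry counted for TPM1 is a long form that begins at the first start codon, and other entries begin at an internal start codon. With the internal-start entry of most counts in its place, an alternative chosen after seeing the data, the change in A375 was 0.13, edgeR adjusted p = 0.51, so the call belongs to the long-form entry. VIM, the most abundant of the 6, had 5323 CPM at 0.3 µM and 5165 CPM at 3 µM RocA, against 7338 and 8403 CPM in the 2 DMSO libraries. Both RocA libraries were below both DMSO libraries, with a log2 change of -0.59 ± 0.25, and the adjusted p was 0.077 by the same edgeR test. That value drew on the spread of VIM in all lines: in a fit of the A375 libraries alone the change was called (-0.60, edgeR adjusted p = 1.2e-04). It was also called with no filter on low counts (-0.73, edgeR adjusted p = 0.0019) and with thinned libraries (-0.64, edgeR adjusted p = 1e-05). Without the line NCI-H520, an alternative chosen after seeing the data, it was called as well (-0.67, edgeR adjusted p = 8.7e-07). In 14 of 22 alternatives the VIM result in A375 stayed as it was, not called.

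**Figure D2:**
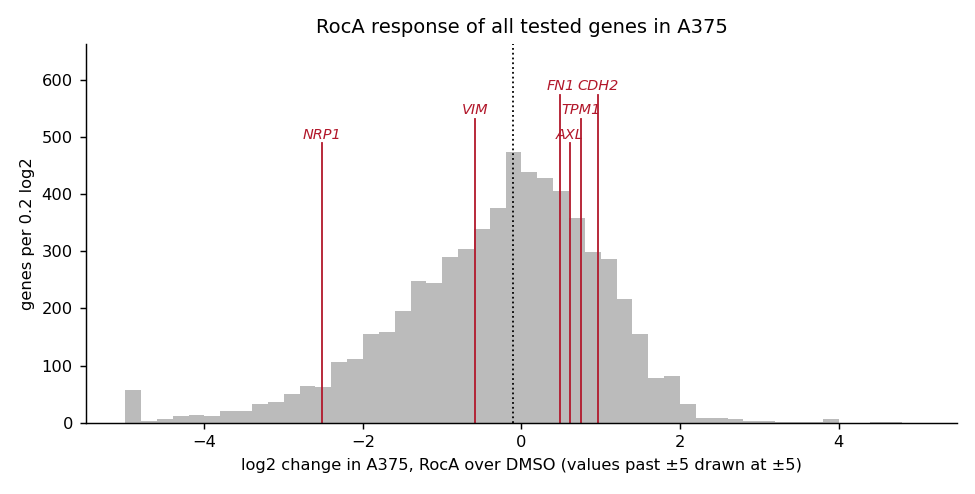
Histogram of the log2 change with RocA in A375 over 6209 genes tested (x axis, RocA over DMSO, both doses together; y axis, genes per bin), with a line for each of the 6 genes and a dotted line at the median of all genes. NRP1 lies at -2.52 in the lower tail, and the 4 genes that rose lie between 0.49 and 0.96.

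With 1 library at each dose, the calls in A375 other than that of CDH2 depended on which library was left out. Where the 0.3 µM library was left out of the fit in which the lines share their dose terms, CDH2 alone kept its call, and NRP1 (-3.15, edgeR adjusted p = 0.079), AXL (0.93, edgeR adjusted p = 0.39), TPM1 (0.38, edgeR adjusted p = 0.17) and FN1 (0.40, edgeR adjusted p = 0.38) lost theirs. Where the 3 µM library was left out, CDH2 and TPM1 kept theirs, and NRP1 (-2.02, edgeR adjusted p = 0.25), AXL (0.16, edgeR adjusted p = 0.94) and FN1 (0.43, edgeR adjusted p = 0.29) lost theirs. In a fit with 1 mean for each line and dose, chosen after seeing the data, each A375 RocA library was set alone against the DMSO libraries. Every RocA arm of that fit is 1 library, so its spread comes only from the 4 pairs of DMSO libraries, and the lone RocA library is assumed to vary like them. It gave log2 changes of 1.16 (0.3 µM) and 0.79 (3 µM) for CDH2, 0.68 and 0.83 for TPM1, 0.71 and 0.52 for AXL, and -2.60 and -2.43 for NRP1, all 8 called by edgeR (highest adjusted p 0.03). FN1 (0.65 and 0.32) and VIM (-0.57 and -0.61) were called at neither dose there. Over the 4 lines, 0 of the 6 genes differed between 3 and 0.3 µM by edgeR's quasi-likelihood test, where 2.9% of all genes were called, 0.757% higher and 2.14% lower. CDH2 had a log2 difference of -0.46 with a 95% interval of -0.82 to -0.09, and its edgeR adjusted p was 0.196. It alone of the 6 passed at an unadjusted p under 0.05. The share of all genes passing that looser threshold was not counted, so no weight is put on it. By DESeq2, 0 of the 6 genes were called at an adjusted p under 0.05. With the lines as replicates, 4 genes were called at 0.3 µM, 2 higher and 2 lower, where 58.9% of all genes were called, 27.2% higher and 31.8% lower, and 4 at 3 µM, 2 higher and 2 lower, where 55.2% of all genes were called, 24.7% higher and 30.5% lower. CDH2 rose at 0.3 µM (1.13 ± 0.14) and at 3 µM (0.68 ± 0.16), and NRP1 and VIM fell at both doses (NRP1 -2.65 ± 0.40 and -2.38 ± 0.42, VIM -0.75 ± 0.23 and -1.02 ± 0.25). AXL was called at 0.3 µM (0.68 ± 0.20) and just missed the threshold at 3 µM (0.48 ± 0.21, 95% interval 0.07 to 0.89, edgeR adjusted p = 0.0502). The long-form entry of TPM1 was called at 3 µM (0.62 ± 0.18) and not at 0.3 µM (0.26 ± 0.17). Neither gene was called between the doses (edgeR adjusted p = 0.77 for AXL and 0.44 for TPM1), so these calls do not show a dose difference. The internal-start entry of TPM1 was not called at 3 µM (0.06, edgeR adjusted p = 0.76). DESeq2 lost the AXL call at 0.3 µM and the TPM1 call at 3 µM, and without A375 the calls of AXL at 0.3 µM and of NRP1, TPM1 and CDH2 at 3 µM were lost in edgeR.

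In the other lines several of the genes had too few footprints for a change to be seen. In Hs 936.T 2 of the 6 genes were called, both lower, where 44.6% of all genes were called, 20.5% higher and 24.1% lower. VIM fell there, with 2236 CPM at 0.3 µM and 1289 CPM at 3 µM RocA, against 3029.9 and 3139 CPM in the 2 DMSO libraries, a log2 change of -0.82 ± 0.26 (edgeR adjusted p = 0.024). The long-form entry of TPM1 fell there too, by edgeR, on 4 and 2 counts with RocA, against 49 and 45 with DMSO, with a log2 change of -1.30 ± 0.55 and an adjusted p of 0.047. That call was lost with DESeq2 (-1.36, adjusted p = 0.072), with the libraries thinned to equal totals (-1.67, edgeR adjusted p = 0.092) and with the longest coding entry (-1.14, edgeR adjusted p = 0.092). Both calls were lost by edgeR without Hs 936.T DMSO replicate 2 (VIM -0.80, adjusted p = 0.1; TPM1 -1.25, adjusted p = 0.082), the VIM call without DMSO replicate 1 as well (-0.94, adjusted p = 0.08), and the TPM1 call without A375 DMSO replicate 2 (-1.29, adjusted p = 0.051). The internal-start entry of TPM1 had 12 and 5 counts with RocA, against 57 and 59 with DMSO. It did not pass (-0.26, edgeR adjusted p = 0.62), so the call depends on the entry that stands for the gene. In Hs 936.T, all 6 RocA counts and 93 of 94 DMSO counts of the long-form entry lay beyond codons 1 to 38. A short entry of 40 counted codons at the internal start had 8 and 3 counts with RocA, against 6 and 14 with DMSO. The entries share reads, and which isoform fell was not tested. CDH2 there (17 and 5 counts with RocA, against 53 and 42 with DMSO) did not pass. 

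In NCI-H520, 1 gene rose and 1 fell, where 40.7% of all genes were called, 19.7% higher and 21% lower. CDH2 rose, as in A375, with 327 CPM at 0.3 µM and 212 CPM at 3 µM RocA, against 133 and 123 CPM in the 2 DMSO libraries and a log2 change of 1.05 ± 0.20 (edgeR adjusted p = 8.2e-06). The groups did not overlap. VIM fell, with 71.0 CPM at 0.3 µM and 139.5 CPM at 3 µM RocA, against 249 and 435 CPM in the 2 DMSO libraries and a log2 change of -1.70 ± 0.47 (edgeR adjusted p = 0.016). The VIM level of those libraries as a share of the Hs 936.T DMSO level was 2.30% and 4.52% with RocA, against 8.07% and 14.1% with DMSO, beside the melanocyte marker shares given above, and the part of those reads in the VIM result was not tested. Without the libraries labelled NCI-H521 the changes were 1.08 for CDH2 and -2.02 for VIM, both called by edgeR. TPM1 did not pass by its long-form entry (7 and 14 counts with RocA, against 40 and 51 with DMSO, log2 -0.38) or its internal-start entry (20 and 22 counts with RocA, against 46 and 52 with DMSO, log2 0.37). FN1 had 265 CPM at 0.3 µM and 180.0 CPM at 3 µM RocA, against 349 and 212 CPM in the 2 DMSO libraries, a log2 change of -0.33 ± 0.23 that did not pass (edgeR adjusted p = 0.26). It was called lower with no filter on low counts (-0.57, edgeR adjusted p = 0.012) and without NCI-H520 DMSO replicate 2 (-0.67, edgeR adjusted p = 0.0085). 

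In NCI-H1650, 1 gene rose and 1 fell, where 30.1% of all genes were called, 11.3% higher and 18.8% lower. TPM1 rose, with 483 CPM at 0.3 µM and 767 CPM at 3 µM RocA, against 363 and 469 CPM in the 2 DMSO libraries, by 0.51 ± 0.18 on the log2 scale (edgeR adjusted p = 0.024). NRP1 fell, with 1 and 1 counts with RocA, against 28 and 32 with DMSO, a ratio of 4.99-fold lower with a 95% counting interval of 1.32 to 42.1 (edgeR adjusted p = 0.034). The NRP1 call was lost in each of 7 alternatives, among them DESeq2 (-2.24, adjusted p = 0.11) and no filter on low counts (-2.19, edgeR adjusted p = 0.055), and the TPM1 call without NCI-H1650 DMSO replicate 1 (0.44, edgeR adjusted p = 0.082) and after thinning (0.80, edgeR adjusted p = 0.058). The internal-start entry of TPM1 had the other sign and was not called (-0.37, edgeR adjusted p = 0.25). FN1 had 291 CPM at 0.3 µM and 291 CPM at 3 µM RocA, against 300.0 and 202 CPM in the 2 DMSO libraries, within the spread of its DMSO libraries. 

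**Figure D3:**
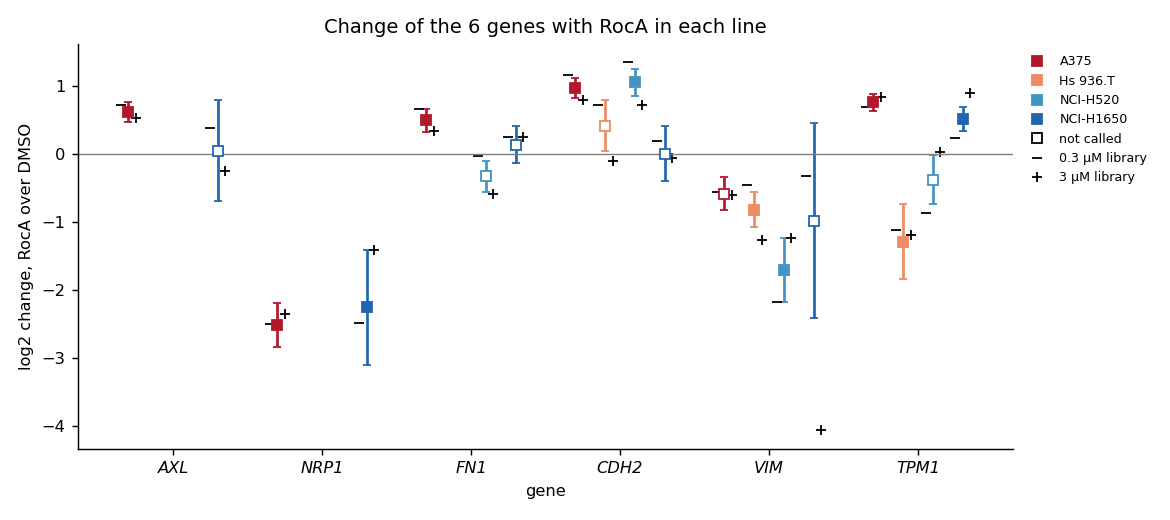
Log2 change of each gene with RocA over DMSO in each line where it had at least 20 counts; squares are the fitted change over both doses with its SE, filled where called at an adjusted p under 0.05 (edgeR), and the dash and the plus are the 0.3 and 3 µM library against the mean of the DMSO libraries of that line. CDH2 is filled and above 0 in A375 and NCI-H520, and TPM1, by its long-form entry, is above 0 in A375 and NCI-H1650 and below 0 in Hs 936.T.

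The response of A375 was tested against the mean response of the other 3 lines. Only TPM1, by its long-form entry, differed among the 6 genes, with a log2 difference of 1.14 ± 0.26 and an adjusted p of 0.0095 (edgeR's quasi-likelihood test), where 0.354% of all genes were called, 0.306% higher and 0.0483% lower. The call was lost with DESeq2 (1.13, adjusted p = 0.11), after thinning (1.20, edgeR adjusted p = 0.18), without A375 RocA 0.3 µM (0.81, edgeR adjusted p = 0.32) and, by an alternative chosen after seeing the data, without NCI-H520 (1.10, edgeR adjusted p = 0.1). With the internal-start entry the difference was 0.21, edgeR adjusted p = 0.89, so it too belongs to the long-form entry. For CDH2 the difference was 0.48 ± 0.32, with a 95% interval of -0.14 to 1.10, and for VIM it was 0.58 ± 0.56, with an interval of -0.52 to 1.69. AXL, NRP1 and FN1 had under 10 counts under DMSO in at least 1 other line, so their differences were not informative at this depth.

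The position of the footprints along each coding sequence was read from entries that cover only part of it. Entries of a gene share reads, so a shorter entry nested in the longer one gives the counts inside a stretch of codons, and the remainder gives the rest. Some shorter entries also hold a few codons of their own. Positions are codons of the annotated coding sequence, counted from the start codon, and intervals cover counting error only. The deposited codon numbers are 10 below those of the annotation, and the codons left out are not given in the sources used here.

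For the long form of TPM1 in A375 the rise lay at the start of the coding sequence. In an entry that follows codons 1 to 62, pooled footprints per library size changed by 2.01 (95% counting interval 1.76 to 2.25) on the log2 scale, and in the rest of the gene by 0.10 (95% counting interval -0.13 to 0.31). Codons 1 to 38 held 48.4% (41.2 to 55.7) of the TPM1 counts at 0.3 µM and 36.3% (29.5 to 43.6) at 3 µM, against 12.4% and 15.7% in the DMSO libraries, with exact 95% binomial intervals in brackets. Both RocA intervals lay above both DMSO shares. NCI-H1650 had the same pattern, with 30 of 78 TPM1 counts in codons 1 to 38 at 0.3 µM and 20 of 50 at 3 µM, against 29 of 252 and 24 of 314 with DMSO. Its change in codons 1 to 62 was 2.14 (95% counting interval 1.66 to 2.60), and in the rest of the gene -0.39 (95% counting interval -0.80 to -0.00). In Hs 936.T and NCI-H520 codons 1 to 38 held 0% and 2.22% (Hs 936.T) and 2.50% and 5.88% (NCI-H520) of TPM1 counts under DMSO. The 0% in Hs 936.T rests on 49 counts, and its exact 95% upper bound is 7.25%. TPM1 is known to have an internal promoter that gives shorter isoforms without these first codons. The internal-start entry of most counts, which shares its later exons with the long form, changed by 0.22 (95% counting interval -0.01 to 0.44) in A375, -0.15 (95% counting interval -0.98 to 0.59) in Hs 936.T, 0.53 (95% counting interval -0.03 to 1.07) in NCI-H520 and -0.41 (95% counting interval -0.86 to 0.01) in NCI-H1650, pooled RocA over DMSO on the log2 scale. All 4 intervals held 0. A rise was also seen at the internal start codon, in a short entry of 40 counted codons that begins there. In A375 it had 14 and 10 counts with RocA, against 17 and 18 with DMSO, the highest log2 ratio (2.77) of the 21 TPM1 entries. It had 12 and 9 against 3 and 3 in NCI-H520, 8 and 3 against 6 and 14 in Hs 936.T, and 1 and 1 against 5 and 6 in NCI-H1650, with smaller RocA libraries.

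**Figure D4:**
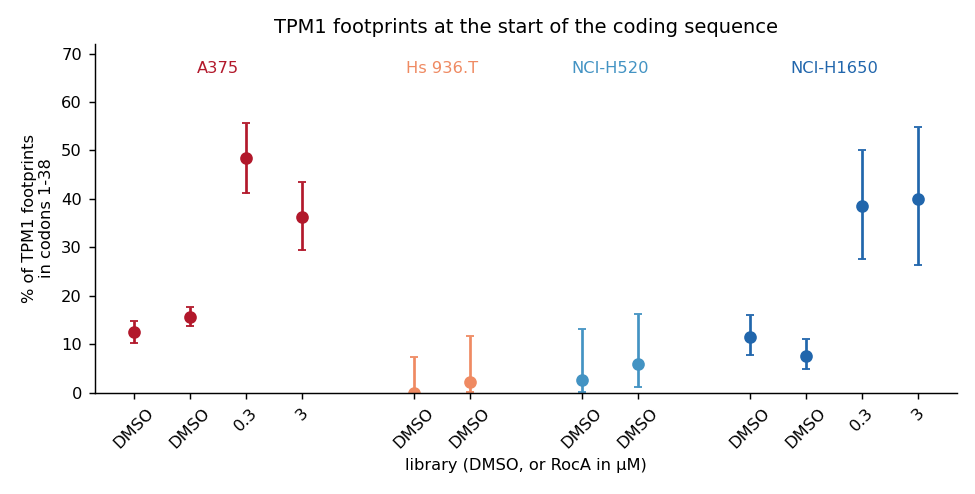
Share of TPM1 footprints (%) in codons 1 to 38 in each library with at least 20 TPM1 counts, by line and dose, with exact 95% binomial intervals. In A375 the RocA libraries stand at 48.4% and 36.3% and the DMSO libraries at 12.4% and 15.7%.

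CDH2 changed more near its start in A375, with intervals that did not overlap. In A375 its first 57 codons, those outside the entry for codons 58 to 907, changed by 2.13 (95% counting interval 1.53 to 2.71), on 37 RocA and 84 DMSO counts, and codons 58 to 907 by 0.85 (95% counting interval 0.63 to 1.07). In NCI-H520 codons 58 to 907 changed by 1.02 (95% counting interval 0.66 to 1.38). The first 57 codons changed there by 1.75 (95% counting interval 0.33 to 3.17), on 10 RocA and 10 DMSO counts, and these intervals overlapped. On VIM the values were lowest in the middle and at the end. Codons 188 to 410 changed by -1.03 (95% counting interval -1.12 to -0.95) in A375 and the rest of VIM by -0.27 (95% counting interval -0.34 to -0.20), and the stretch beyond an entry of codons 1 to 425 changed by -1.64 (95% counting interval -1.87 to -1.42). Codons 188 to 410 held 40.5% and 35.2% of VIM counts with RocA in A375, against 51.8% and 50.5% with DMSO. In Hs 936.T the shares were 49.9% and 34.0% with RocA, against 53.9% and 53.1% with DMSO.

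NRP1 in A375 changed by -3.34 (95% counting interval -4.79 to -2.21) over codons 1 to 642, on 6 RocA counts, and by -1.23 (95% counting interval -2.47 to -0.22) in the rest, on 8 RocA counts. Both intervals lay below 0. AXL changed by 0.52 (95% counting interval 0.27 to 0.77) over codons 269 to 895 and by 0.86 (95% counting interval 0.51 to 1.21) upstream of them. FN1 changed by the same value over codons 1 to 647, 0.49 (95% counting interval 0.12 to 0.84), and in the rest, 0.49 (95% counting interval 0.27 to 0.70), both doses pooled. By library the share of FN1 counts in codons 1 to 647 was 21.5% (15.4 to 28.6) at 0.3 µM and 34.5% (25.9 to 43.9) at 3 µM RocA, against 26.8% and 26.9% with DMSO, so the 2 doses lay on either side of the DMSO shares. In NCI-H520 those codons held 25 of 56 FN1 counts at 0.3 µM and 12 of 40 at 3 µM RocA, against 55 of 231 and 44 of 169 with DMSO. Entries of FN1 that differ by a single exon gave the footprints on its 2 alternative extra domains. Extra domain B, 91 codons at chr2:215392931-215393203, held 1 of 279 FN1 counts with RocA (0.358%, exact 95% interval 0.00907 to 1.98) and 27 of 1974 (1.37%, 0.903 to 1.98) with DMSO in A375, where an even spread over codons would give 3.69%. Extra domain A, 90 codons at chr2:215380811-215381080, held 10 of 278 (3.60%) with RocA and 76 of 1947 (3.90%) with DMSO, against 3.79% for an even spread. In NCI-H520 it held 8.42% with RocA and 2.54% with DMSO, and in NCI-H1650 1.52% and 3.23%. A further alternative stretch, 89 codons at chr2:215372109-215372375, held 21 of 270 (7.78%, 4.88 to 11.6) with RocA in A375. With DMSO it held 70 of 1867 (3.75%, 2.93 to 4.71). Its shares were 7.94% and 5.49% in NCI-H1650, but 2.33% and 3.15% in NCI-H520.

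**Figure D5:**
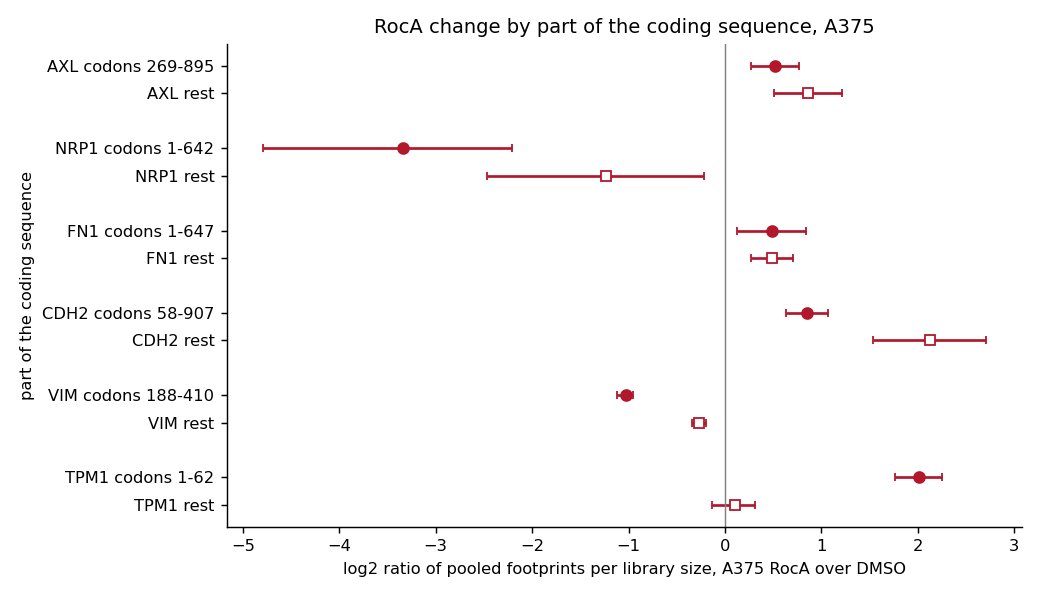
Log2 ratio of pooled footprints in A375, RocA over DMSO, in a stretch of codons (filled) and in the rest of the gene (open), with 95% counting intervals. The TPM1 stretch of codons 1 to 62 lies at 2.01 and the rest of TPM1 at 0.10, while the 2 parts of FN1, both doses pooled, both lie at 0.49.

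The DMSO libraries gave the level of each gene in each line without RocA. Per 100 codons, VIM had 1722 CPM in A375 under DMSO, TPM1 139, AXL 29.7, CDH2 23.3, NRP1 15.0 and FN1 13.4. All 6 were higher in A375 than in Hs 936.T by edgeR's quasi-likelihood test (7389 genes tested), where 64.9% of all genes were called, 32.8% higher and 32.1% lower, and the median log2 difference was 6.08 over the 6 genes, also with NRP1 set at its bound, and 0.01 over all. The members were chosen with earlier results of these data known, so their count and median beside those of all genes are a description and not a test of the group. A level in bulk cells does not tell fewer cells with a transcript from fewer footprints in each cell.

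AXL averaged 263 ± 5.74 CPM in A375 (SD, n = 2), and it had 1 and 2 counts in the Hs 936.T libraries, a 445-fold difference with a counting interval of 152 to 2159. It had 0 and 1 counts in NCI-H520 and averaged 20.4 ± 11.9 CPM in NCI-H1650. NRP1 averaged 137 ± 11.3 CPM in A375 and had 0 counts in all 4 Hs 936.T libraries, at least 229-fold higher in A375 against a floor of 3 counts over the 2 DMSO libraries. NRP1 stood at 44.1 ± 5.24 CPM in NCI-H1650 and at 5.89 ± 4.07 in NCI-H520. For both receptors the order was A375, NCI-H1650 and then the other two lines, and for AXL the last 2 did not differ by edgeR (log2 -0.20, 95% interval -3.27 to 2.86).

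FN1 was also found in the lung lines, where an uncalled difference from A375 does not show equal levels. It averaged 331 ± 33.2 CPM in A375, 280.2 ± 96.8 in NCI-H520 and 251 ± 69.6 in NCI-H1650, and no pair of these 3 lines was called (A375 against NCI-H520 0.22 ± 0.22, A375 against NCI-H1650 0.47 ± 0.23, log2 ± SE, edgeR). The first of these was called without NCI-H520 DMSO replicate 1 (0.65, edgeR adjusted p = 1.6e-04) and had the other sign without the library labelled NCI-H521 (-0.06, edgeR adjusted p = 0.79). The pair A375 and NCI-H1650 was called without NCI-H1650 DMSO replicate 1 (0.79, edgeR adjusted p = 0.012) or either NCI-H520 DMSO library, and NCI-H520 and NCI-H1650 without the library labelled NCI-H521 (0.54, edgeR adjusted p = 0.0031). With no filter on low counts both A375 pairs were called. The values were 0.29 (edgeR adjusted p = 0.034) against NCI-H520 and 0.51 (edgeR adjusted p = 1.1e-04) against NCI-H1650. In Hs 936.T FN1 had 5 and 2 counts. CDH2 averaged 209 ± 15.0 CPM in A375 and 128 ± 7.11 in NCI-H520, a called difference of 0.67 ± 0.13, and 18.6 ± 1.21 in Hs 936.T and 16.2 ± 2.47 in NCI-H1650, which were not called apart.

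VIM averaged 7871 ± 753 CPM in A375 and 3084 ± 77.0 CPM in Hs 936.T. The lung lines stood lower, with 342 ± 131 CPM for NCI-H520 and 32.9 ± 12.7 CPM for NCI-H1650, and each step of that order was called by edgeR. In the NCI-H520 DMSO libraries VIM stood at 8.07% and 14.1% of its Hs 936.T level, and the melanocyte markers at a median of 3.73% and 7.47%. The part of reads of that kind in the NCI-H520 level of VIM was not tested. VIM was the one member whose level in Hs 936.T exceeded that of both lung lines. TPM1 averaged 384 ± 6.27 CPM in A375 and 416 ± 74.6 in NCI-H1650, not called apart (log2 -0.05 ± 0.11), then 62.1 ± 2.49 in NCI-H520 and 18.5 ± 0.720 in Hs 936.T. Against NCI-H520, 5 of the 6 genes were higher in A375, where 55.9% of all genes were called, 26.2% higher and 29.6% lower. Against NCI-H1650, 4 of 6 were higher in A375, where 63% of all genes were called, 31.4% higher and 31.6% lower. In Hs 936.T against NCI-H520, 1 member was higher and 4 lower, where 59.6% of all genes were called, 29% higher and 30.7% lower. In Hs 936.T against NCI-H1650, 1 was higher and 4 lower, where 69% of all genes were called, 34.3% higher and 34.7% lower. In NCI-H520 against NCI-H1650, 2 were higher and 3 lower, where 58.8% of all genes were called, 30.5% higher and 28.3% lower.

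The partners of the 6 genes were counted in lists that leave the members out, of which only the genes named in these files could be tested. Each count stands beside a background in which, with RocA in A375, 48.7% of all genes were called, 22.8% higher and 25.9% lower, and, in A375 against Hs 936.T, 64.9% of all genes were called, 32.8% higher and 32.1% lower. No list was tested, and counts of a few genes near these shares say nothing particular of a list. The lists, too, were chosen with earlier results of these data known. Results without single libraries are given for the 6 members only, and several list changes below rest on few RocA counts. Of the TAM receptors next to AXL, MERTK had 0 counts in A375 under DMSO, at least 41.8-fold lower than in Hs 936.T, and TYRO3 was also lower (-0.61 ± 0.26), while neither was called with RocA in A375 by edgeR (2 of 4 listed genes tested). Of 10 NRP1 co-receptors and ligands tested, from 21 listed, 2 rose and 5 fell with RocA in A375. The paralogue NRP2 fell by 2.05 ± 0.40 on the log2 scale, on 10 RocA counts. The NRP1 adaptor GIPC1 had a change of -1.91 ± 0.29, on 21 RocA counts. The semaphorin receptor PLXND1 rose by 1.78 ± 0.30, on 48 RocA counts. Against Hs 936.T, 6 of these 10 were higher and 3 lower in A375, with FLT1, a VEGF receptor, higher by 467-fold (interval 83.4 to 18468), SEMA3B by 6.60 ± 0.24 log2 and SEMA3A by 4.15 ± 0.21 log2.

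Of 11 fibronectin receptors and matrix partners tested, from 17 listed, 2 rose and 5 fell with RocA in A375, while FN1 rose. The falls were led by integrin subunits, ITGA3 (-1.59 ± 0.24), ITGB5 (-1.42 ± 0.35) and ITGAV (-1.37 ± 0.27), on 46, 17 and 25 RocA counts. In A375 against Hs 936.T, 10 of the 11 were higher and 1 lower, with the matrix gene FBN1 at least 66.1-fold higher, the integrin ITGA4 higher by 302-fold (interval 53.8 to 11945), and the matrix gene TNC higher by 7.48 ± 0.29 log2. Of 6 cadherin and catenin genes tested, from 10 listed, 2 rose and 2 fell with RocA. The catenins that bind the CDH2 tail fell, CTNNB1 by 2.07 ± 0.16 and CTNND1 by 1.72 ± 0.24 log2, while CDH13 rose by 0.58 ± 0.17. Against Hs 936.T, 1 of the 6 was higher and 3 lower in A375, with P-cadherin (CDH3) lower by 166-fold (interval 56.5 to 808), CDH13 higher by 7.15 ± 0.27 log2, and E-cadherin (CDH1) at 0 counts against 4, at least 1.53-fold lower.

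Of 4 intermediate filament and linker genes tested, from 10 listed, 2 rose and 2 fell with RocA, among them the linker PLEC (2.33 ± 0.27), SYNM (1.88 ± 0.40) and the lamin LMNA (-0.64 ± 0.13). In A375 against Hs 936.T, 3 were higher and 1 lower, with SYNM at -1.72 ± 0.22, PLEC at 1.09 ± 0.30 and LMNA at 0.52 ± 0.11. Of 17 tropomyosin and stress fibre genes tested, from 24 listed, 7 rose and 6 fell with RocA. Vinculin (VCL), which links actin to adhesion sites, rose by 1.89 ± 0.15, while the calponin CNN3 had a change of -2.30 ± 0.20. Against Hs 936.T, 9 of the 17 were higher and 6 lower, with CNN2 at 2.93 ± 0.18, the myosin heavy chain MYH10 at -1.85 ± 0.10 and CALD1 at -1.45 ± 0.11.

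Of 4 transcription factors of the epithelial to mesenchymal transition tested, from 9 listed, ZEB1 rose with RocA in A375 (1.30 ± 0.23) and the other 3 were not called. ZEB1 was also higher in A375 than in Hs 936.T (1.96 ± 0.20), ZEB2 was lower (-3.48 ± 0.14), and TCF4 was at least 18.3-fold higher. Of the other genes of undifferentiated melanoma, 2 rose and 8 fell among 15 tested with RocA in A375, from 30 listed. TEAD1, YAP1 and SMAD3, transcriptional regulators, had changes of -1.95 ± 0.57, -1.84 ± 0.31 and -1.40 ± 0.39. These rest on 5, 18 and 12 counts over both RocA libraries. In A375 against Hs 936.T, 14 of 16 were higher and 1 lower, with TGFBI higher by 864-fold (interval 155 to 34155), NT5E by 7.35 ± 0.26 log2 and ANXA1 by 7.33 ± 0.16 log2. All 7 melanocyte markers tested, from 16 listed, were lower in A375, with DCT at -10.32 ± 0.38, PMEL at -10.31 ± 0.70 and TYRP1 at -9.95 ± 0.48, and none of the 7 was called with RocA in A375. The listed marker ERBB3, left out for its short counted entry, was 1.77-fold higher in A375 (counting interval 1.72 to 1.83). Of 8 epithelial markers tested, from 16 listed, KRT18 alone rose with RocA in A375 (0.62 ± 0.14). Against Hs 936.T 2 were higher and 3 lower, with KRT18 higher by 7.15 ± 0.17 log2, ESRP1 lower by 211-fold (interval 37.3 to 8362) and EPCAM at least 13.4-fold lower. Of 3 squamous and alveolar markers tested, from 13 listed, KRT5 and KRT15 were at least 3.48-fold and 2.61-fold higher in A375, on 12 and 9 counts against 0.

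The genes whose pattern over the 16 libraries was most like each member were taken by the Pearson r of log2 CPM among 6255 genes of at least 10 CPM on average. The libraries share 4 lines and differ in depth, so the values are a description. They were NT5E (r = 0.989) and ITIH5 (0.983) for AXL, CRIM1 (0.962) and TIPARP (0.938) for NRP1, and IGFBP3 (0.988) and PRAME (0.963) for FN1. For CDH2 they were ELMO1 (0.976) and STRA6 (0.967), for VIM CMTM7 (0.964) and SRPX (0.958), and for TPM1 ANXA1 (0.978) and SNX7 (0.962).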

How the data were processed

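The data were ribosome footprint counts in 16 libraries of 4 established human cell lines. The authors deposited whole-number counts for each transcript entry, 1 table for each library, as raw footprint counts with no normalization seen in the values. CASAVA 1.8, Bowtie2 2.1.0, TopHat2 2.0.9 and the build hg38 are named in the submitters' processing notes, with no role given, and the counting program, its filters and its strand setting are not given in the sources used here. Reads are repeated over the entries of a gene.

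The entries carry no gene names. Runs of neighbouring coding lengths, as deposited codon numbers, were matched to coding genes of GENCODE 29, less 10 codons, which named 9960 of 19967 genes. Matching to decoy genes, whose lengths had been moved at random, named 5 (0.0495%), and of simulated data 7855 of 19967 genes (39.3%) were named, 7 of them wrongly. Of the named genes, 331 hold a counted entry much shorter than the longest one (under 0.5 of its length). From the lists 3 of them, ERBB3, PTPRC and SFTPB, were left out, a choice made after seeing the data.

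Counts were fitted with edgeR 4.0.16 (robust quasi-likelihood test, TMM scaling, filter on a minimum count of 10, Benjamini-Hochberg adjustment over all genes tested, called under 0.05) in R 4.3.3. A line's RocA response pooled both doses, with all 16 libraries in 1 fit with shared dose terms, and levels by line used the 8 DMSO libraries. DMSO replicates of a line differed by more than sampling noise (chi-square per degree of freedom 1.52 to 2.51). CPM used the TMM sizes, and log2 CPM a prior count of 2. Ratios from pooled counts have exact intervals of 95%, which cover counting error only, since no molecular identifiers are named in the sources used here, and a count of 0 was set at a floor of 3 counts over the group. DESeq2 1.42.0 was an alternative test. Further alternatives were DESeq2 size factors, no filter, the longest entry, thinning, leaving out libraries or lines, leaving out the libraries labelled NCI-H521, a replicate block and, chosen after seeing the data, an internal-start entry for TPM1. Tested on simulated data, a 2-fold change was recovered in 54.0% of planted genes for the A375 RocA response (5961 genes, 1.83% false calls) and in 88.9% for A375 against Hs 936.T (6942 genes, 10.7% false calls).

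All 6 genes are described, and from each list the 3 called genes with the largest absolute log2 change in the A375 RocA response and in A375 against Hs 936.T were named, with the 2 genes most like each member. A gene that this rule names and a sequence are not reported here. The members and lists were chosen with earlier results of these data known. No RNA-seq was used here, so a change in mRNA and a change in ribosomes on it cannot be told apart.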

Additional observations from a re-analysis of the deposited data

Results flagged for a closer look

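The long-form entry of TPM1, which stands for the gene, responded to RocA differently in A375 than in the mean of the other 3 lines, with a log2 difference of 1.14 by edgeR's quasi-likelihood test (adjusted p = 0.0095). At both doses that entry was above the DMSO mean in A375 and below it in Hs 936.T, a log2 gap of 1.92 between the 2 lines, and the gap between NCI-H1650 and Hs 936.T was 1.72. For the internal-start entry of most counts the difference was 0.21, edgeR adjusted p = 0.89, so the call depends on the entry that stands for the gene. In Hs 936.T and NCI-H520 few counts of the long-form entry lay in its first codons under DMSO. The part of start codon use in these TPM1 differences was not tested. FN1 was above the DMSO mean at both doses in A375 and below it in NCI-H520, a gap of 0.81, and the gap between NCI-H1650 and NCI-H520 was 0.55. The differences between single pairs of lines were not tested.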

How the results depend on the processing

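Of the A375 changes with RocA, CDH2 kept its direction and its call in all 22 alternatives. The number of members called in A375 was 1 to 6 when 1 library was left out. In Hs 936.T it was 1 with DESeq2, the longest entry or thinned libraries, and 0 to 2 when 1 library was left out. In NCI-H1650 it was 1 with DESeq2 or no filter, 0 with thinned libraries, and 1 to 2 when 1 library was left out. For A375 minus the other lines it was 0 with DESeq2, thinned libraries or NCI-H520 left out, and 0 to 1 when 1 library was left out. At 3 µM over the lines it was 1 to 5 when 1 line was left out. With the internal-start entry for TPM1 it was 1 in Hs 936.T, 1 in NCI-H1650 and 0 for A375 minus the other lines.

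Among the values that changed sign, NRP1 in Hs 936.T and in NCI-H520 against NCI-H1650 and TPM1 in NCI-H1650 had been called, and the others had not. With the internal-start entry for TPM1, TPM1 was -0.37 in NCI-H1650, 0.37 in NCI-H520 and -0.05 at 0.3 µM, and FN1 at 3 µM was -0.06. With thinned libraries CDH2 in Hs 936.T was -0.10, TPM1 in A375 against NCI-H1650 0.10, NRP1 in Hs 936.T against NCI-H1650 0 and NRP1 in NCI-H520 against NCI-H1650 3.92. FN1 at 3 µM was -0.04 with DESeq2 size factors, -0.03 with DESeq2 and -0.11 with no filter. TPM1 at 0.3 µM was -0.12 with DESeq2, and FN1 in A375 against NCI-H520 was -0.06 without the library labelled NCI-H521. With 1 library or line left out, the log2 ranges were -0.06 to 0.26 (CDH2), -0.01 to 0.55 (FN1) and -0.34 to 0.91 (AXL, at -0.07 without either A375 RocA library) in NCI-H1650, -0.13 to 0.36 for TPM1 at 0.3 µM, -0.31 to 0.25 for FN1 and -0.68 to 0.53 for AXL at 3 µM, and -0.48 to 0.09 for VIM between the doses. Under DMSO they were -0.22 to 0.14 for TPM1 in A375 against NCI-H1650, -0.17 to 0.55 for FN1 in NCI-H520 against NCI-H1650 and -0.06 to 0.65 for FN1 in A375 against NCI-H520. The cause was not tested.

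The labels do not say whether the replicate numbers pair the libraries of different lines. Correlations of deviations between lines ran from -0.0295 (A375 with NCI-H1650) to 0.0827 (A375 with Hs 936.T). Low values of this kind cannot exclude a shared batch, so pairing was not decided. With the replicate block VIM in A375 was called (-0.58, edgeR adjusted p = 0.04) and so was FN1 in A375 against NCI-H1650 (0.49, edgeR adjusted p = 0.05). Depth limits the RocA libraries most, above all in NCI-H1650.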
